A study of Mus musculus with 45 samples.

Results

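Chromatin accessibility was examined at Top1 and Suv39h1, 2 mouse genes at which the study described transcription running against the gene and an open site at the origin of that transcription. The members are the peaks of the merged ATACseq libraries whose summit lies in chr2:160630000-160740000 (Top1) or chrX:8040000-8100000 (Suv39h1), in mm10. The rule gave 22 of 184964 peaks, of which 13 belong to the Top1 region and 9 to the Suv39h1 region. ATACseq counts DNA fragments released by the Tn5 transposase, which cuts where the DNA is not covered by nucleosomes. It holds no RNA, so the direction of transcription was not measured here.

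The cells were mouse embryonic stem cells (mESC) grown in serum-free medium with LIF and inhibitors of MEK and GSK3. In each of 3 lines 1 transcription factor carried the FKBP degradation tag on its own gene, and dTAG-13 at 500 nM sent the tagged protein to the proteasome. The SOX2-FKBP and NANOG-FKBP lines were made in E14 cells from picked homozygous clones, and the OCT4-FKBP line, in V6.5 cells, came from another laboratory. Each factor was thus depleted in 1 line, and an effect of the factor cannot be told apart from one of the line or its strain. The controls are the libraries labelled NT, which the series text calls untreated and the study's methods describe as given DMSO. SOX2-FKBP cells were taken at NT, 0.5, 1, 2, 6 and 24 h with 2 libraries each, OCT4-FKBP cells at NT, 2, 6 and 24 h with 2 libraries each, and NANOG-FKBP cells at NT with 2 libraries and at 2, 6 and 24 h with 3 each. According to the study's methods the OCT4 and NANOG experiments were duplicates, and the SOX2 experiments were duplicates with a further independent clone. The labels do not say which libraries, if any of those used here, came from that clone, nor whether duplicates were separate cultures, so the p-values measure the spread between these libraries, which may be partly technical.

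SOX2 and OCT4 (the product of Pou5f1) are DNA-binding factors of the pluripotent state that can bind neighbouring sites as a pair, and both are described as pioneer factors because they can engage DNA that is wrapped in nucleosomes. NANOG is a homeodomain factor of the same network. Topoisomerase I, made from Top1, relieves the DNA supercoils that form ahead of and behind RNA polymerase by cutting 1 strand. SUV39H1 is a histone methyltransferase that adds methyl groups to lysine 9 of histone H3 at heterochromatin. Antisense transcription across a gene can start from an open site inside the gene or beyond its 3′ end.

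The peaks fall into classes by position in the GENCODE vM21 annotation. A promoter peak has its summit within 500 bp of the start of a protein-coding gene's transcript. Top1 lies on the plus strand at chr2:160645888-160722764, and its region held 3 promoter peaks, 5 further peaks inside Top1 and 5 others, downstream of Top1 or inside its neighbour Plcg1. Suv39h1 lies on the minus strand at chrX:8061171-8074760, and its region held 2 promoter peaks, 2 further peaks inside the gene, 4 on its 3′ side and 1 other. The antisense gene Gm14820 runs along the plus strand at chrX:8042943-8074619 and spans both the 3′ side and most of Suv39h1. For Top1 no antisense transcript was found in the annotation used.

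The antisense-side site of each locus was taken as the peak with the highest mean count, among the peaks inside Top1 and among those on the 3′ side of Suv39h1. For Top1 this is peak 3 of the region, at chr2:160655533-160657001, in an intron of Top1 with its summit 10488 bp downstream of the gene's start. For Suv39h1 it is peak 2, at chrX:8050291-8051859, in an intron of Gm14820. Its summit lies 9848 bp past the 3′ end of Suv39h1 and 268 bp from the annotated start of the transcript Gm14820-205, so this site is outside Suv39h1, not within it. Whether these peaks are the open sites that the study showed at the antisense origins was not checked, so the name antisense-side site is a label. The gene promoters are Top1 peak 1 (chr2:160645426-160646992, in an exon of Top1) and Suv39h1 peak 7 (chrX:8073795-8075306, in an exon of Suv39h1). Fragments were counted over the whole peaks, which are 1469 bp wide at the Top1 site and 1567 bp at the Top1 promoter. The 300 bases around the summits of these peaks were searched for motifs and are shown. They are the plus strand of GRCm38.p6 (the mm10 assembly), at chr2:160656226-160656525 and chr2:160645829-160646128. Capitals mark matches to the SOX motif (CATTGT or CTTTGT) or the POU octamer (ATGCNAAT or ATGCANAT), searched on both strands.
Top1 peak 3: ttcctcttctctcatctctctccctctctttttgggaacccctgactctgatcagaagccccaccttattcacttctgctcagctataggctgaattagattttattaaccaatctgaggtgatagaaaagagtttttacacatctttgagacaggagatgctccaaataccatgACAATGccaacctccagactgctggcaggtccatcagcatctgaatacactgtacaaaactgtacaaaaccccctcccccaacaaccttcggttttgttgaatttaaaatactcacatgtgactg
Top1 peak 1: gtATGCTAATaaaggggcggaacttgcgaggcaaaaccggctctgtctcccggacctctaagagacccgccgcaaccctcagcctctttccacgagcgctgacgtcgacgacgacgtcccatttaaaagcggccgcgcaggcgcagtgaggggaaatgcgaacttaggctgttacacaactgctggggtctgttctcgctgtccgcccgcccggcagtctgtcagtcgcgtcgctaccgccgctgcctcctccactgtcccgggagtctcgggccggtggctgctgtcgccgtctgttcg

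The window of the Top1 site held 1 match to the SOX motif, on the minus strand (ACAATG on the plus strand), with its centre 28 bp to the right of the summit. It held no POU octamer, while the Top1 promoter window held 1 (ATGCTAAT), and the Suv39h1 promoter window held neither motif. A SOX match stood in 34.9% of the windows of this length at all 184800 peaks with sequence and in 36.7% of those outside promoters, and a POU octamer in 8.25% of all windows. The joined SOX-POU motif, a SOX match followed after 1 base by ATG, any 2 bases and AA, was in 0 of the 22 member windows and in 0.16% of all windows. Only exact matches were counted, so the count of 0 does not show that a joined site is absent. On the minus strand of the Top1 site, the bases from the SOX match onward depart from this pattern, which leaves 2 POU bases free, only in the last base. How many other windows hold such a near match was not counted, so nothing is concluded from it. The nuclear receptor motif AAGGTCA was not in the window of the Top1 site (10.5% of all windows). The KLF motif (GGGNGTGG or GGGNGGGG) was in it (31.3% of all windows). The antisense-side peaks had a GC content of 42.6% (Top1) and 45.5% (Suv39h1), below the 65.3% and 61.6% of the promoters of Top1 and Suv39h1 and the median of 50% over all peaks.

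Values are given as normalised counts, which are fragment counts scaled to 10000000 effective counts per library (TMM scaling, which assumes that most peaks do not change). In NT cells the Top1 site, inside the gene, stood at 139.8 and 132.7 in the 2 SOX2-FKBP libraries, 235.8 and 221.9 in the OCT4-FKBP libraries and 219.2 and 219.5 in the NANOG-FKBP libraries. In SOX2-FKBP cells it then stood at 40.43 and 32.54 at 0.5 h, 13.98 and 43.53 at 1 h, 39.02 and 37.4 at 2 h, 27.19 and 23.71 at 6 h, and 13.24 and 19.32 at 24 h. Every treated SOX2-FKBP library lay below both NT libraries, already at the first time point. The mean at 0.5 h was 26.8% of the NT mean, and that at 24 h was 11.9%.

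In OCT4-FKBP cells the Top1 site stood at 44.69 and 47.28 at 2 h, 40.81 and 30.93 at 6 h, and 27.57 and 24.37 at 24 h. These 6 libraries also lay below both NT libraries of their line, with 20.1% of the NT mean at 2 h and 11.3% at 24 h. In NANOG-FKBP cells the same site stood at 164.9, 405.2 and 214.7 at 2 h, at 173.5, 268.8 and 212.1 at 6 h, and at 209.7, 404.1 and 227.8 at 24 h. The treated NANOG-FKBP libraries lay on both sides of the NT values, and the highest value at each time belonged to replicate 2. Those 3 libraries were the shallowest of the series and held 13.2 to 17.6% mitochondrial counts, against at most 6.65% in every other library. Their part in the values was not tested beyond leaving them out.

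The Suv39h1 site, on the 3′ side of the gene and inside Gm14820, fell in the same 2 lines. Its NT values were 132.8 and 179.8 in the SOX2-FKBP line, 194.8 and 205.6 in the OCT4-FKBP line, and 186.9 and 192.9 in the NANOG-FKBP line. In SOX2-FKBP cells it stood at 59.23 and 69.97 at 0.5 h, 34.42 and 54.42 at 1 h, 26.01 and 31.31 at 2 h, 32.05 and 24.53 at 6 h, and 15.28 and 19.32 at 24 h. The mean was 41.3% of the NT mean at 0.5 h and 11.1% at 24 h, with no overlap between treated and NT libraries.

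In OCT4-FKBP cells the Suv39h1 site stood at 60.23 and 57.78 at 2 h, 30.45 and 42.06 at 6 h, and 6.128 and 14.62 at 24 h. The last 2 values rest on 4 and 9 fragments. They lay below those at 2 and 6 h, and the mean at 24 h was 5.18% of the NT mean. In NANOG-FKBP cells the values were 189, 320.2 and 208.7 at 2 h, 161.3, 268.8 and 190.7 at 6 h, and 173.1, 299.7 and 201.9 at 24 h. Again the NT values lay within the range of the treated ones, and replicate 2 was the highest at each time.

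**Figure D1:**
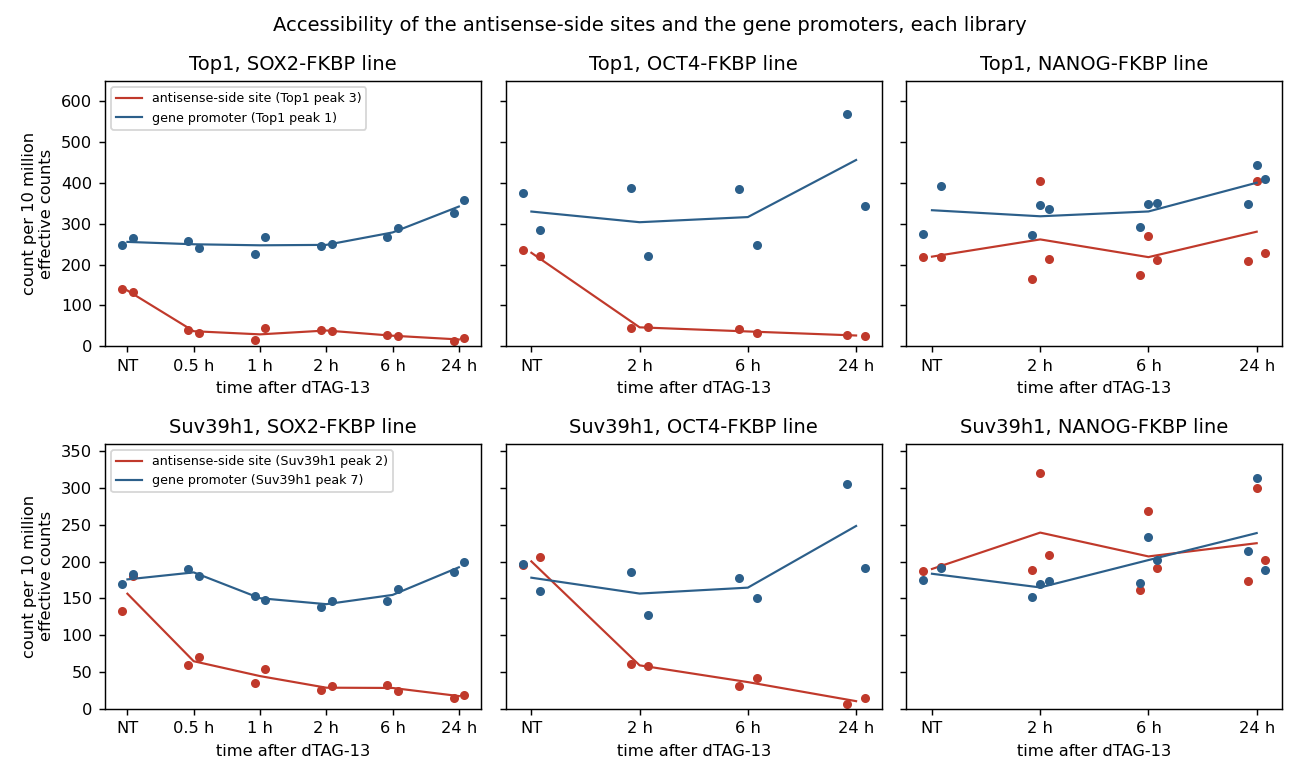
Normalised counts (scaled to 10000000 effective counts, y axis) of the antisense-side site (red) and the gene promoter (blue) of Top1 (top) and Suv39h1 (bottom) in each library (points) of the 3 lines, with lines through group means, against time after dTAG-13 (x axis, equally spaced, NT first). The red points drop below the NT points in both the SOX2-FKBP and the OCT4-FKBP line, to 16.3 and 26 on average at 24 h for Top1, and not in NANOG-FKBP cells; the blue points do not drop at 24 h.

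The promoters took another course. The Top1 promoter stood at 247.1 and 263.9 in NT SOX2-FKBP cells, 245.1 and 251.3 at 2 h, 267.1 and 290.3 at 6 h, and 327 and 357.4 at 24 h. In OCT4-FKBP cells it stood at 376.4 and 283.5 in NT, 387.6 and 220 at 2 h, 384.2 and 248.6 at 6 h, and 569.9 and 342.8 at 24 h. In these cells replicate 1 was above replicate 2 in every group, and the groups overlapped. Within each replicate number the value at 24 h was above that in NT. In NANOG-FKBP cells it ranged from 274 to 392.4 in NT, from 272.7 to 346.4 at 2 h, from 292.4 to 350.3 at 6 h and from 347.8 to 445 at 24 h.

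The Suv39h1 promoter stood at 168.9 and 182.6 in NT SOX2-FKBP cells, 138.1 and 146.1 at 2 h, 146.6 and 162.7 at 6 h, and 185.4 and 199 at 24 h. In OCT4-FKBP cells it stood at 196.4 and 159.7 in NT, 185.6 and 127.4 at 2 h, 178.2 and 150.9 at 6 h, and 304.9 and 191.7 at 24 h. In NANOG-FKBP cells it ranged from 175.6 to 191.2 in NT, from 151.7 to 172.9 at 2 h, from 170.4 to 233 at 6 h and from 189 to 313.3 at 24 h. In SOX2-FKBP cells the Suv39h1 promoter thus lay below both NT libraries at 2 and 6 h, as it did at 1 h (152.7 and 147.7), and above them at 24 h, and in NANOG-FKBP cells all 3 libraries at 2 h lay below NT. In all 3 lines the means of both promoters at 24 h were above those in NT.

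The changes were tested with edgeR's quasi-likelihood test over all 166430 peaks that passed a filter on low counts in the 27 libraries of the NT, 2, 6 and 24 h groups, with Benjamini-Hochberg adjustment over all of them. Of the 22 members 21 passed the filter. A peak was called lost or gained when its adjusted p was below 0.05. Because the study showed the loss at both loci from these same SOX2-FKBP libraries, the SOX2 calls at both sites are no independent evidence of it. The study did not show these loci in the OCT4-FKBP and NANOG-FKBP libraries.

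At the Top1 site the log2 fold change against NT after SOX2 depletion was -1.83 ± 0.31 (SE) at 2 h, -2.42 ± 0.33 at 6 h and -3.05 ± 0.35 at 24 h, with adjusted p (edgeR) of 6.53e-05, 7.39e-07 and 1.89e-08. After OCT4 depletion it was -2.31 ± 0.29, -2.67 ± 0.29 and -3.13 ± 0.34 at the same times, with adjusted p (edgeR) of 4.46e-07, 7.04e-09 and 6.37e-09. After NANOG depletion it was 0.11 ± 0.26, -0.05 ± 0.26 and 0.28 ± 0.25, with adjusted p (edgeR) of 1.0, 1.0 and 0.792. The lower 95% bounds of the NANOG changes were -0.40, -0.55 and -0.22, so a loss of the size seen in the other lines lies outside these intervals. The SOX2 changes had 2.17%, 1.37% and 1.24% of all tested peaks below them at 2, 6 and 24 h, and the OCT4 changes 0.678%, 0.82% and 0.976%.

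At the Suv39h1 site the log2 fold change after SOX2 depletion was -2.42 ± 0.30, -2.46 ± 0.30 and -3.15 ± 0.33 at 2, 6 and 24 h, with adjusted p (edgeR) of 3.46e-07, 1.11e-07 and 1.73e-09. After OCT4 depletion it was -1.77 ± 0.27, -2.46 ± 0.27 and -4.27 ± 0.38, with adjusted p (edgeR) of 9.1e-06, 9.18e-09 and 9.31e-11. After NANOG depletion it was 0.24 ± 0.25, 0.08 ± 0.24 and 0.17 ± 0.24, with adjusted p (edgeR) of 0.987, 1.0 and 0.886, and the lower 95% bounds were -0.24, -0.40 and -0.30. At 24 h of OCT4 depletion 0.168% of all tested peaks had a lower change, and the value was -3.7496 without replicate 1 and -5.0053 without replicate 2 of that time.

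In the fit of the 12 SOX2-FKBP libraries, over 160432 peaks, both sites were already called lost at 0.5 h. The log2 fold change was -1.92 ± 0.26 at the Top1 site and -1.33 ± 0.22 at the Suv39h1 site, with adjusted p (edgeR) of 6.49e-06 and 0.00012. At 1 h it was -2.42 ± 0.28 and -1.90 ± 0.23. The 1 h value of the Top1 site was -1.6868 without replicate 1 and -3.3634 without replicate 2 of that time, and it was called in both cases. These were the 2 lost among 19 members tested at each of the 2 times, and none was gained, where 3.14% and 5.46% of all tested peaks were lost and 0.158% and 0.889% gained. DESeq2 also called 0 members gained, and 0 members rose at an unadjusted p below 0.05 at these times. Without replicate 1 at 0.5 h the Suv39h1 value was -1.18 and its adjusted p (edgeR) was 0.0606. The promoters changed by -0.08 and -0.12 (Top1) and by 0.03 and -0.28 (Suv39h1) at 0.5 and 1 h, and neither was called.

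**Figure D2:**
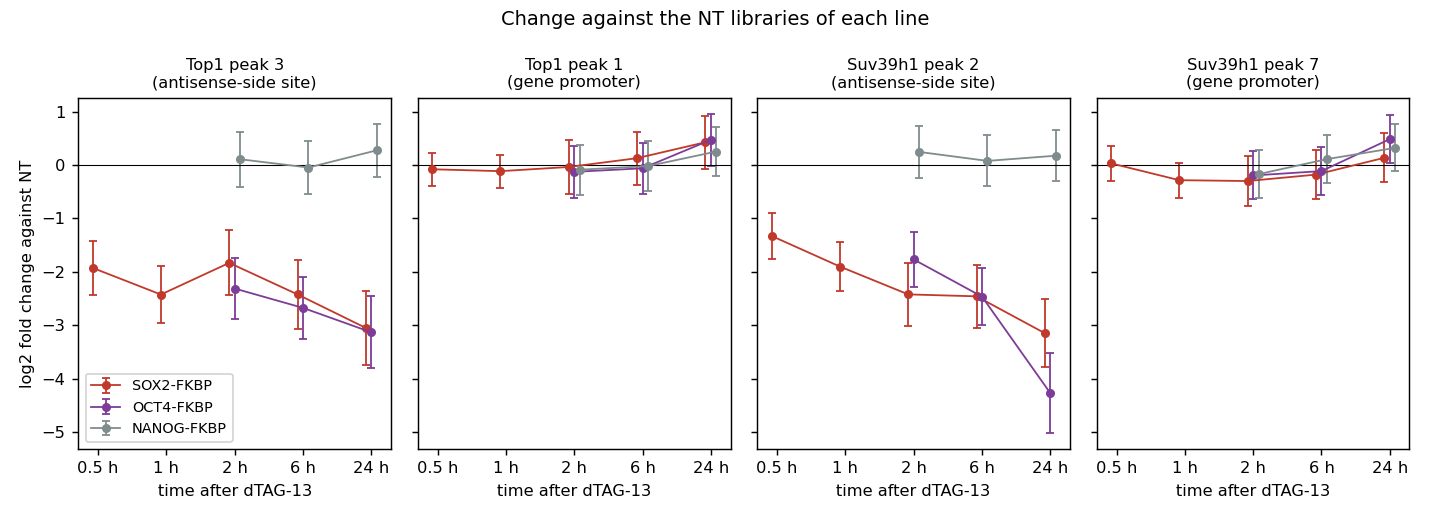
Log2 fold change against the NT libraries of the line (y axis, points, with 95% intervals) at each time after dTAG-13 (x axis, equally spaced) for both antisense-side sites and both gene promoters. At the sites the SOX2-FKBP and OCT4-FKBP points lie between -1.33 and -4.27 and the NANOG-FKBP points lie near 0. At the promoters the points of all 3 lines lie between -0.30 and 0.48. Points at 0.5 and 1 h come from the fit of 12 libraries, the others from that of 27.

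The change at the sites differed between NANOG depletion and the other 2 depletions, in a test of the difference between lines in the same fit. SOX2 minus NANOG was -1.94, -2.37 and -3.32 at the Top1 site and -2.67, -2.53 and -3.32 at the Suv39h1 site at 2, 6 and 24 h, with adjusted p (edgeR) of at most 0.00443. OCT4 minus NANOG was -2.42, -2.63 and -3.41 at the Top1 site and -2.01, -2.54 and -4.44 at the Suv39h1 site, with adjusted p (edgeR) of at most 0.000681. Differences with NANOG share its NT libraries, so the SOX2 and OCT4 values are not independent of each other.

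No difference between SOX2 and OCT4 depletion was called at either site. At the Top1 site SOX2 minus OCT4 was 0.48 (95% interval -0.36 to 1.32) at 2 h, 0.25 (-0.62 to 1.12) at 6 h and 0.08 (-1.0016 to 1.1641) at 24 h. At the Suv39h1 site it was -0.65 (-1.44 to 0.13) at 2 h, 0.0055 (-1.02 to 1.03) at 6 h and 1.12 (0.016 to 2.23) at 24 h, with adjusted p (edgeR) of 0.699, 1.0 and 0.362. Without OCT4 24 h replicate 1 the last difference was 0.5952, and without replicate 2 it was 1.8583. The intervals are wide, and the test does not show that the losses were alike.

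Over all members 0 of 21 tested peaks differed between SOX2 and OCT4 at any time, where 1.57%, 2.73% and 2.77% of all tested peaks did at 2, 6 and 24 h. DESeq2 also called 0, and at an unadjusted p below 0.05 the edgeR fit had 2 lower and 3 higher at 2 h, 1 and 2 at 6 h, and 1 and 3 at 24 h. For SOX2 minus NANOG 2, 2 and 3 of the 21 were called, all lower, against 1.75%, 3.27% and 6.78% of all peaks. For OCT4 minus NANOG 2, 3 and 5 were called lower and 0, 0 and 1 higher, against 2.52%, 4.95% and 8.89%.

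Neither gene promoter was called at any time in any line in this fit, which had no replicate block. Some calls at 24 h depended on the libraries and the model. The Top1 promoter changed by -0.04 ± 0.25, 0.13 ± 0.25 and 0.43 ± 0.25 after SOX2 depletion, by -0.13, -0.06 and 0.47 after OCT4 depletion and by -0.09, -0.02 and 0.25 after NANOG depletion at 2, 6 and 24 h. The Suv39h1 promoter changed by -0.30 ± 0.24, -0.18 ± 0.24 and 0.13 ± 0.23, by -0.20, -0.11 and 0.48, and by -0.17, 0.11 and 0.32. The lowest adjusted p among these 18 comparisons (edgeR) was 0.131. In the fit with a replicate block, the Top1 promoter was called gained at 24 h of SOX2 depletion (0.42, adjusted p 0.0325, edgeR) and of OCT4 depletion (0.44, adjusted p 0.0178), and the Suv39h1 promoter at 24 h of OCT4 depletion (0.46, adjusted p 0.0286). With only the SOX2-FKBP libraries of these groups fitted, the Top1 promoter was called at 24 h as well (0.40, adjusted p 0.0379, edgeR). Without OCT4 24 h replicate 2 both were called at 24 h of OCT4 depletion, at 0.79 (Top1, adjusted p 0.0381, edgeR) and 0.78 (Suv39h1, adjusted p 0.0279). Leaving out each library in turn gave 0.0733 to 0.7877 and 0.1257 to 0.7759 there. With GC content offsets and no block, the OCT4 24 h values turned to -0.13 (Top1) and -0.03 (Suv39h1) and neither was called. Across the genome 8.16% of the 19098 promoter peaks tested were gained at 24 h of SOX2 depletion and 39.8% at 24 h of OCT4 depletion, with medians of 0.34 and 0.52, beside 0.43 and 0.47 for the Top1 promoter and 0.13 and 0.48 for the Suv39h1 promoter. After SOX2 depletion 7.72%, 10.2% and 27% of promoter peaks had a change at or below that of the Suv39h1 promoter at 2, 6 and 24 h.

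The site was then set against the promoter of the same gene within each library, as log2 of the ratio of their counts with 0.5 added to each, which needs no scaling between libraries. For Top1 the ratio in SOX2-FKBP cells was -0.90 ± 0.12 (SD, n = 2) in NT and -3.31 ± 0.73 over the 10 treated libraries of all times (exact permutation test, two-sided, p = 0.0303). In OCT4-FKBP cells it was -0.51 ± 0.23 in NT and -3.27 ± 0.72 over 6 treated libraries (exact permutation test, p = 0.0714), and in NANOG-FKBP cells -0.58 ± 0.36 and -0.52 ± 0.36 over 9 (exact permutation test, p = 0.909). For Suv39h1 it was -0.18 ± 0.23 in NT and -2.30 ± 0.74 treated in SOX2-FKBP cells, and 0.18 ± 0.27 and -2.71 ± 1.61 in OCT4-FKBP cells, with the same exact permutation p of 0.0303 and 0.0714. In NANOG-FKBP cells it was 0.05 ± 0.05 and 0.14 ± 0.35 (exact permutation test, p = 0.8).

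All 10 treated SOX2-FKBP libraries and all 6 treated OCT4-FKBP libraries had a lower ratio than both NT libraries of their line, at both loci. In NANOG-FKBP cells 1 of 9 treated libraries did so at Top1 and 4 of 9 at Suv39h1. The p-values are the smallest that 66 and 28 regroupings allow for SOX2 and OCT4, and the OCT4 design cannot pass 0.05. Adjusted over the 6 tests they were 0.0909 (SOX2), 0.107 (OCT4) and 0.909 (NANOG), so no ratio test passed 0.05. With these numbers of libraries none could have passed after adjustment in any line, even with the smallest p in all 6 tests. Nothing is therefore concluded from this outcome. The treated libraries of 1 line share its NT libraries and hold several times, so the SD includes the change over time. Group means at 24 h were -4.37 (SOX2) and -4.05 (OCT4) at Top1 and -3.45 and -4.56 at Suv39h1.

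**Figure D3:**
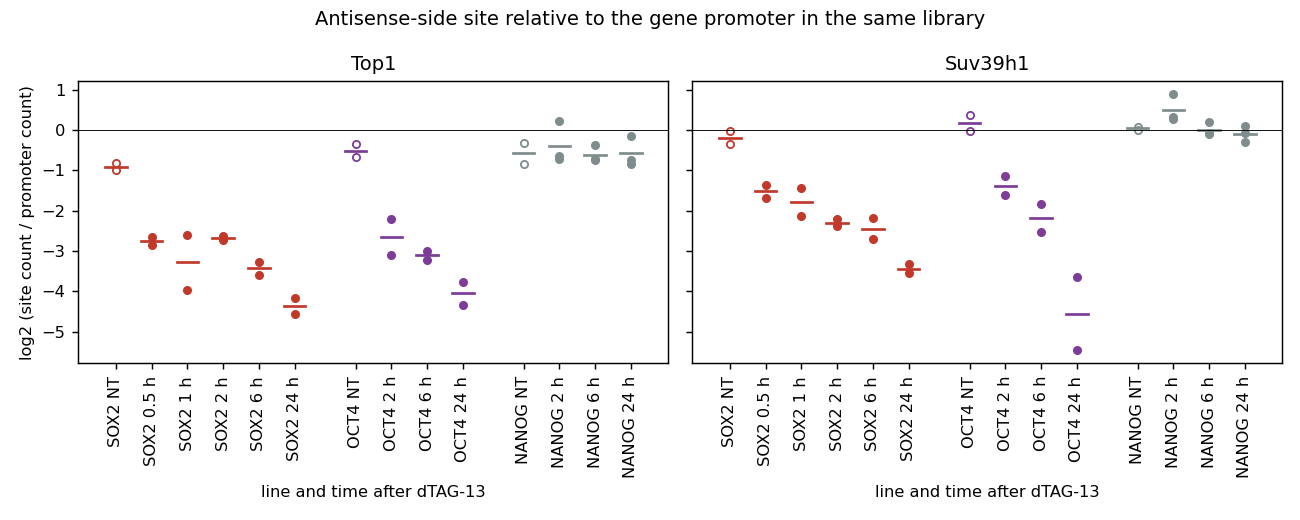
Log2 ratio of the antisense-side site's count to the gene promoter's count in each library (points; open circles are NT, bars are group means), by line and time after dTAG-13 (x axis), for Top1 and Suv39h1. Every treated SOX2-FKBP and OCT4-FKBP point lies below the NT points of its line, down to -5.47 for Suv39h1, while NANOG-FKBP points lie between -0.84 and 0.90.

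The other members show how far the loss reached along each locus. At 2, 6 and 24 h of SOX2 depletion 2, 2 and 6 of 21 members were lost and 0 gained, where 5.06%, 6.83% and 10.9% of all tested peaks were lost and 0.574%, 1.18% and 4.87% gained. At 2, 6 and 24 h of OCT4 depletion 4, 5 and 9 were lost and 1, 0 and 2 gained, where 5.1%, 7.97% and 12.7% of all peaks were lost and 1.92%, 4.12% and 10.8% gained. After NANOG depletion 0 of 21 were called in either direction, where 0.938%, 1.08% and 2.25% of all peaks were lost and 0.0162%, 0.0367% and 0.288% gained. In the NANOG comparisons DESeq2 also called 0, and an unadjusted p below 0.05 (edgeR) was reached by 1 member lower at 6 h and 1 higher at 24 h. DESeq2 called 0 gained in the SOX2 comparisons too, where 0, 1 and 1 members rose at an unadjusted p below 0.05, and 0 at 6 h of OCT4 depletion, where 0 did.

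Inside Top1, the intronic peaks next to the site were much weaker and behaved in other ways. Top1 peak 2, whose summit lies 7459 bp downstream of the start, had normalised counts of 9.17 to 49.9 over all libraries. It was lost after OCT4 depletion, by -1.11, -1.09 and -1.03 at 2, 6 and 24 h, with adjusted p (edgeR) of 0.0135, 0.00738 and 0.0231, and was not called after SOX2 depletion. Without OCT4 NT replicate 2 none of these 3 calls held (adjusted p 0.166, 0.133 and 0.139). Leaving out replicate 1 at 2 h or replicate 2 at 6 h (adjusted p 0.198 and 0.183), or either library at 24 h (0.113 and 0.114), also ended the call at that time. The calls at 2 and 24 h also ended under DESeq2 (0.0634 and 0.101) and with only the line compared (0.0587 and 0.0641), and that at 24 h with GC content offsets (0.077).

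Top1 peak 4, only 12127 bp downstream of the start and next to the lost site, was not called in any of the 9 comparisons, with values of 30.3 to 79.8. Top1 peak 5 was lost at 24 h of OCT4 depletion (-1.29, adjusted p 0.0455, edgeR), from a low level of 0 to 20.5 over all libraries, and DESeq2 gave an adjusted p of 0.181. It was not called under 5 other settings either (adjusted p 0.0558 to 0.0874). Leaving out either OCT4 library at 24 h or either in NT also ended that call (adjusted p 0.131 and 0.223, and 0.11 and 0.0899), as did leaving out NANOG 6 h replicate 2 (0.053). Top1 peak 6, deep in the gene, and peak 7, at the start of the transcript Top1-204, were not called, nor were the intergenic peaks 8 and 10. Peak 9, with at most 19 fragments in a library, did not pass the filter.

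Downstream, 3 peaks lay in Plcg1, which encodes a phospholipase C that acts below growth factor receptors. Its promoter, Top1 peak 11, was gained at 24 h of OCT4 depletion (0.86 ± 0.21, adjusted p 0.00241, edgeR). With GC content offsets the value was 0.28 (adjusted p 0.274), and without OCT4 NT replicate 2 it was 0.76 (adjusted p 0.0554). In an intron of Plcg1, Top1 peak 12 was lost at 24 h of SOX2 depletion (-0.90 ± 0.25, adjusted p 0.00815, edgeR) and gained at 2 h of OCT4 depletion (0.83 ± 0.24, adjusted p 0.0249). The first call ended without SOX2 24 h replicate 2 (adjusted p 0.109). The second ended with total counts (0.0584), with at least 10 counts in every library (0.0568), with only the line compared (0.0921), and without OCT4 2 h replicate 1, OCT4 NT replicate 1 or OCT4 NT replicate 2 (0.385, 0.18 and 0.0876). The NT level of this peak was 159.2 and 159.8 in SOX2-FKBP cells, against 58.19 to 92.74 in the NT libraries of the other lines.

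Further into Plcg1, Top1 peak 13 was lost at 24 h in both lines, by -1.27 ± 0.31 after SOX2 depletion and by -1.60 ± 0.33 after OCT4 depletion (adjusted p 0.0026 and 0.000373, edgeR). It stood at 72.32 and 66.68 in NT OCT4-FKBP cells, at 103 and 101.8 at 2 h, and at 24.51 and 21.12 at 24 h. It was not called after NANOG depletion, and the difference between lines was called at 24 h both for SOX2 minus NANOG (-1.41) and for OCT4 minus NANOG (-1.74). Without SOX2 NT replicate 2 the SOX2 loss was -0.91 (adjusted p 0.107, edgeR). The difference SOX2 minus NANOG was lost under DESeq2 (adjusted p 0.0563), with total counts (0.0515), and without NANOG NT replicate 2, NANOG 24 h replicate 3, SOX2 NT replicate 2 or either SOX2 24 h library (0.0521 to 0.235). OCT4 minus NANOG was lost without NANOG NT replicate 2 (0.0706). Unlike the antisense-side site it was not called at 2 h in either line.

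Along Gm14820 the loss was not limited to the main site. Suv39h1 peak 3, 8166 bp past the 3′ end of Suv39h1, was lost at all 3 times of OCT4 depletion, by -1.13, -1.90 and -2.75, with adjusted p (edgeR) of 0.0282, 0.000102 and 6.44e-05. Its values were 23.83 and 30.26 in NT, 10.69 and 13.79 at 2 h, 5.183 and 9.278 at 6 h, and 4.596 and 3.249 at 24 h, where they rest on few fragments. After SOX2 depletion it was lost at 24 h (-1.02, adjusted p 0.0422, edgeR), and leaving out any 1 SOX2 NT or 24 h library ended that call (adjusted p 0.0815 to 0.199), as did DESeq2 (0.117), GC content offsets without (0.1) and with the replicate block (0.0655), and total counts (0.0562). The OCT4 call at 2 h ended without either 2 h library or without OCT4 NT replicate 2 (0.225, 0.102 and 0.281), under DESeq2 (0.101), with GC content offsets (0.0574) and with only the line compared (0.0959). The OCT4 minus NANOG difference was -1.90 at 6 h and -2.94 at 24 h, and the former was lost without NANOG NT replicate 2, OCT4 NT replicate 2 or OCT4 6 h replicate 1 (adjusted p 0.068, 0.0856 and 0.11, edgeR).

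Suv39h1 peak 1, in an exon of Gm14820 and 11 bp from the start of Gm14820-204, was lost at 24 h after SOX2 depletion (-1.04 ± 0.36, adjusted p 0.0389, edgeR) and after OCT4 depletion (-1.57 ± 0.39, adjusted p 0.00231). The SOX2 call ended without either 24 h library or without SOX2 NT replicate 2 (adjusted p 0.068, 0.259 and 0.262), under DESeq2 (0.0795) and with GC content offsets (0.0525). Its OCT4 minus NANOG difference of -1.93 was lost without OCT4 24 h replicate 2 (0.0503). Suv39h1 peak 4 was called in no comparison. The peaks inside Suv39h1 itself, 5 and 6, were lost after OCT4 depletion. Peak 5 fell by -0.92 at 6 h and by -1.05 at 24 h (adjusted p 0.0394 and 0.0321, edgeR), and peak 6 by -1.20 at 24 h (adjusted p 0.0335). For peak 5 the NT values of 46.84 and 29.7 in OCT4-FKBP cells stood above the 18.47 and 18.55 of the SOX2-FKBP line, and without OCT4 NT replicate 1 its calls ended (adjusted p 0.408 and 0.249). Its call at 6 h also ended without either OCT4 6 h library (0.178 and 0.145) or any 1 of 7 SOX2-FKBP libraries (0.0524 to 0.0543), and that at 24 h without OCT4 24 h replicate 1 (0.344). The call of peak 6 ended without any 1 OCT4 NT or 24 h library (0.0558 to 0.16). Both calls of peak 5 and that of peak 6 were also absent under DESeq2 (0.145, 0.116 and 0.117) and with only the line compared (0.0944, 0.0701 and 0.0688), and that of peak 6 with GC content offsets (0.102).

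Upstream of Suv39h1, Was encodes a regulator of actin in blood cells, and its promoter, Suv39h1 peak 8, was not called. Suv39h1 peak 9, 169 bp from the start of the transcript Gm6787, was gained at 24 h of OCT4 depletion (1.15 ± 0.24, adjusted p 0.000303, edgeR), from 84.64 and 96.38 in NT to 239 and 164.1. Its OCT4 minus NANOG difference of 1.05 (adjusted p 0.0394) was lost with GC content offsets (0.074), with total counts (0.0823), and without NANOG NT replicate 2, NANOG 24 h replicate 1 or 3, OCT4 24 h replicate 1 or either OCT4 NT library (0.0507 to 0.331). The gains at 24 h of OCT4 depletion were thus at the Plcg1 promoter and this start, and the losses at peaks away from annotated protein-coding starts.

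**Figure D4:**
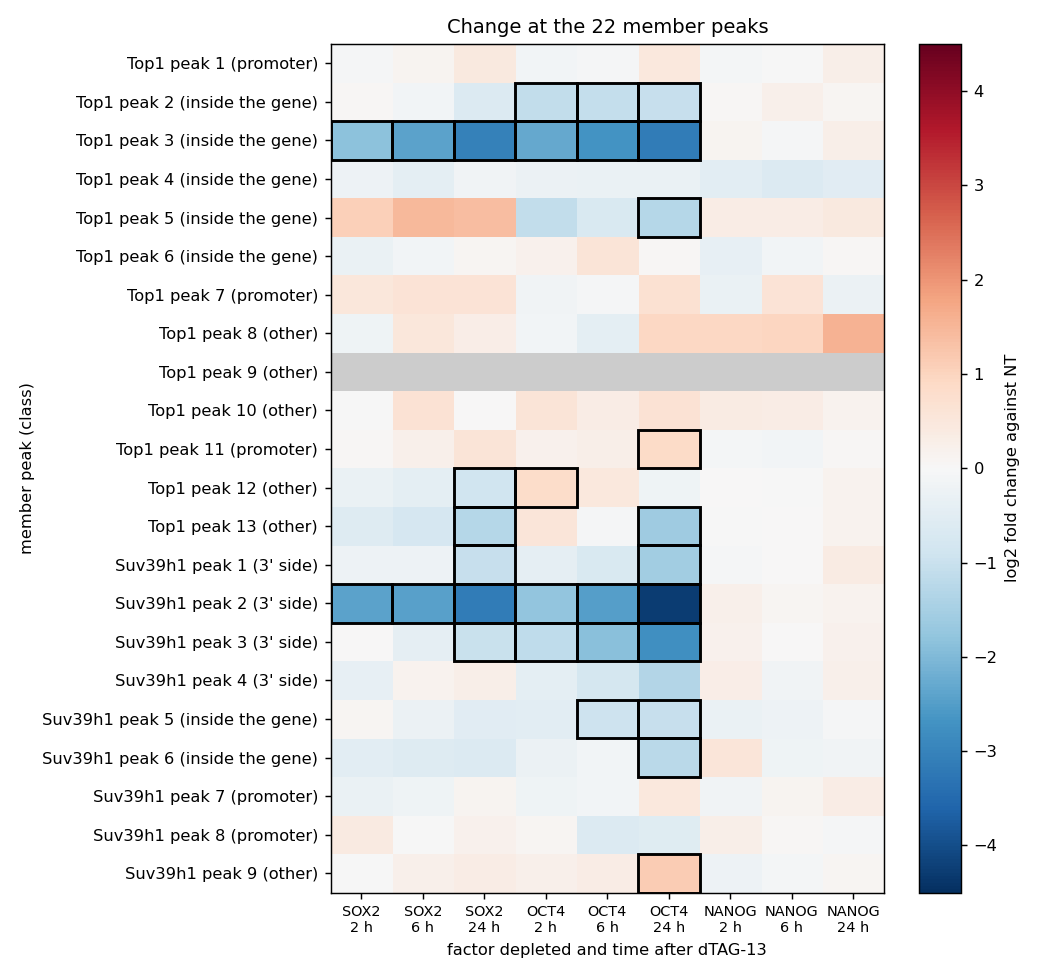
Log2 fold change against NT (colour) of each member peak (rows, in genome order, with its class) at 2, 6 and 24 h of SOX2, OCT4 or NANOG depletion (columns); black frames mark an adjusted p below 0.05 and grey the peak that was not tested. Top1 peak 3 and Suv39h1 peak 2 are framed in all 6 SOX2 and OCT4 columns, and no NANOG column holds a frame.

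**Figure D5:**
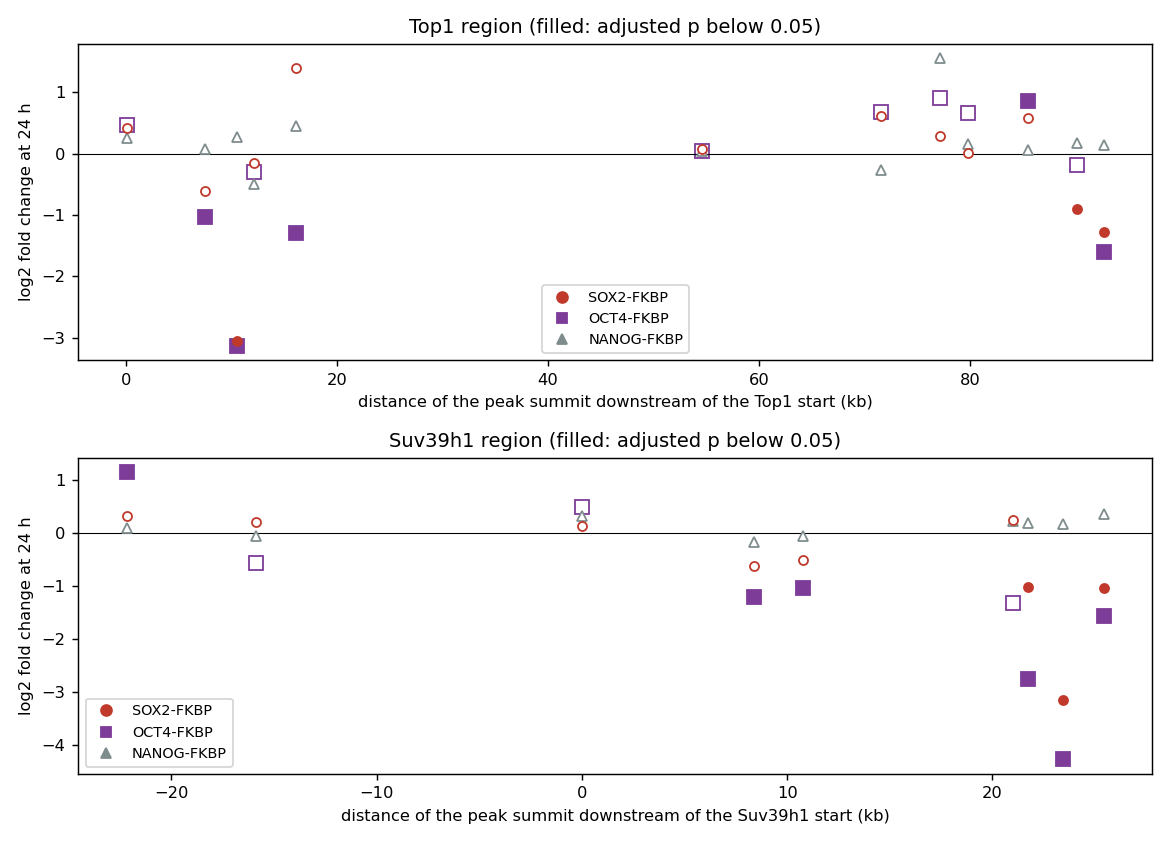
Log2 fold change at 24 h (y axis) of each member peak against the distance of its summit from the start of Top1 or Suv39h1 (x axis, kb, positive in the direction of the gene), for the 3 lines (symbols; filled means an adjusted p below 0.05). The lowest points lie 10488 bp into Top1 and 23437 bp from the Suv39h1 start. The promoters at 0 kb are unfilled in this fit, which had no replicate block.

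Promoters of related genes were read from lists drawn up with earlier results of these data known. Of 8 genes of topoisomerases and of the repair of their DNA adducts, 6 had a tested promoter peak, of 11 H3K9 methyltransferases and partners 9, and of 7 H3K9 demethylases 7. The first list holds Top1 and the second Suv39h1. None of these 22 promoters was called lost in any of the 9 comparisons, by edgeR or by DESeq2, and none fell at an unadjusted p below 0.05. Of all promoter peaks tested, edgeR called 0.105% (2 h of NANOG depletion) to 3.71% (24 h of OCT4 depletion) lost. A count of 0 among 22 is near those shares and shows nothing particular to these genes. At 24 h of OCT4 depletion 5 of 6, 4 of 9 and 4 of 7 were gained, against 39.8% of all promoter peaks, with medians of 0.88, 0.55 and 0.87 beside a median of 0.52 over all promoter peaks. With GC content offsets these counts were 3, 2 and 2 and the share of all promoters was 21.5%.

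Among the topoisomerases, Top2a, which is used in dividing cells, gained 0.90 and Top2b gained 0.85, and Top1mt, whose product works in mitochondria, gained 0.95 at 24 h of OCT4 depletion. Tdp2, whose product frees topoisomerase II from DNA, gained 0.90, and Top3a gained 0.64 (adjusted p 0.0341, edgeR). Among the methyltransferases, Suv39h2, the paralog of Suv39h1, gained 1.06, Ehmt1 1.03, Setdb1 0.73 and the heterochromatin protein gene Cbx3 0.61. Among the demethylases, Kdm1a gained 0.93, Kdm3a 0.92, Kdm4c 0.87 and Kdm4d 0.93. As 39.8% of all promoter peaks were gained at 24 h of OCT4 depletion, these gains show nothing particular to the named genes. Some of them were not called with GC content offsets. At 24 h of SOX2 depletion Ehmt1 was gained (0.71, adjusted p 0.0343, edgeR) and none of the others was called. DESeq2 did not call Ehmt1 there, and called 1 demethylase gained.

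Peaks whose course over the 21 treated libraries was most like that of each site were picked by Pearson's r of the log2 change from the NT mean of the line, among 48572 peaks with a mean of at least 50 normalised counts. The points share libraries and NT values, so r is a description across libraries. Between the sites themselves r was 0.949. Peaks lost after both SOX2 and OCT4 depletion but not after NANOG depletion tend to a high r with each other. The spread of r over all peaks was not examined, so this value shows no likeness particular to these sites. For the Top1 site the 5 highest peaks outside the loci, with r of 0.985 to 0.987, had as nearest protein-coding gene start Snx19 (161844 bp away), Ldoc1 (18527 bp), Fzd5 (4099 bp), Utrn (92 bp) and Klhl1 (268340 bp). For the Suv39h1 site, with r of 0.98 to 0.986, these were Acss1 (44 bp), Urm1 (6009 bp), Dpp6 (65486 bp), Mybl2 (2971 bp) and Ndufs4 (109154 bp). At 2 h their log2 fold changes ran from -0.98 (Utrn) to -2.66 (Dpp6) after SOX2 depletion and from -0.96 (Utrn) to -3.06 (Klhl1) after OCT4 depletion, and from -0.49 (Ndufs4) to 0.46 (Utrn) after NANOG depletion. The peaks were picked on these same libraries, so this course follows from the choice and is no separate result. Utrn and Acss1 have such a peak at an annotated start, while the other 8 lie farther away.

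The libraries held 1817191 to 17575631 fragments in peaks, with a median of 9496229, and the smallest counts at both sites and both promoters rest on 4 to 53 fragments. Of 6 genes of the pluripotent state 5 had a promoter peak, at 190 to 579 normalised counts in NT. Of 12 genes that mark trophoblast, endoderm, mesoderm, neural cells or fibroblasts 9 had one too, at 23.7 to 427, so an open promoter does not tell these cell types apart. In bulk samples, fewer open cells and a lower accessibility per cell cannot be told apart. The loss of the tagged protein itself was not measured in these files.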

How the data were processed

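The authors aligned paired-end ATACseq reads to mm10 with bwa mem 0.7.17-r1188, kept alignments of mapping quality 10 or more with samtools 1.10, removed duplicates with Picard 2.12.0, called peaks with MACS2 on the merged time-series libraries and counted fragments per peak. The deposited count table holds raw counts, with no normalization, for 31 of 45 samples; the other 14 were not analysed here. The deposited peak list gives, for the merged libraries, a score, a fold enrichment and −log10 p-values, which were not used to compare samples. Its summits chose the members.

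Counts were tested with edgeR 4.0.16 in R 4.3.3 (TMM, estimateDisp, glmQLFit, glmQLFTest) on peaks in which over 6 of 27 libraries (over 2 of 12 for the SOX2-FKBP time course) exceeded 10 counts. Normalised counts use TMM over the 31 libraries. A standard error is the log2 fold change divided by the root of the test statistic, and 95% intervals assume a normal error. Ratio tests enumerated all regroupings of the libraries of 1 line. DESeq2 1.42.0, other scalings, filters, GC offsets, replicate blocks and leaving out each library were alternatives. On simulated data of this design the edgeR step called all simulated 4-fold changes and a minority of the 2-fold ones. The changes were simulated only at peaks with high mean counts and without pairing of replicates, so this does not cover the weaker members.

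Libraries with the same replicate number deviated together in the SOX2-FKBP (mean correlation of deviations 0.13 to 0.48 over 15 pairs of groups) and OCT4-FKBP lines (0.32 to 0.60 over 6). These numbers were therefore taken to pair the libraries, but the main fits and the ratio tests left the pairing out. Only the alternatives with a replicate block used it, and some promoter calls at 24 h changed with it, as given above. In the NANOG-FKBP line treated libraries with the same number deviated together (0.40 to 0.47), but treated and NT libraries did so less (0.015 to 0.15, not all over 0.1), so NT and treated libraries were not taken as paired. No 2 libraries of a group agreed within sampling noise.

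The loci, members, lists and alternatives were chosen with earlier results of these data known. Named peaks are all members, the promoter peak with the highest mean of each listed gene, and the 5 peaks most like each site. The sequence around the Suv39h1 site is not reported here.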

Additional observations from a re-analysis of the deposited data

Results flagged for a closer look

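In a test of the difference between lines (edgeR, adjusted p below 0.05), the change against NT differed at 6 member peaks. They are pooled over 9 comparisons, in each of which 1.57% to 8.89% of all tested peaks differed. At Top1 peak 3, the antisense-side site, SOX2 minus NANOG was -1.94 at 2 h, -2.37 at 6 h and -3.32 at 24 h, and OCT4 minus NANOG was -2.42, -2.63 and -3.41. At Suv39h1 peak 2, the other antisense-side site, SOX2 minus NANOG was -2.67, -2.53 and -3.32, and OCT4 minus NANOG was -2.01, -2.54 and -4.44. At Top1 peak 13, in Plcg1, SOX2 minus NANOG was -1.41 and OCT4 minus NANOG was -1.74 at 24 h. At Suv39h1 peak 3 OCT4 minus NANOG was -1.9 at 6 h and -2.94 at 24 h, and at Suv39h1 peak 1 it was -1.93 at 24 h. At Suv39h1 peak 9 OCT4 minus NANOG was 1.05 at 24 h. The differences at Top1 peak 13, at Suv39h1 peaks 1 and 9 and, at 6 h, at Suv39h1 peak 3 were not called without certain single libraries. Groups held 2 or 3 libraries, too few for a test of single outlying libraries.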

How the results depend on the processing

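The losses at both antisense-side sites at 2, 6 and 24 h of SOX2 or OCT4 depletion kept their direction and their call under every alternative in which the site was tested. The Top1 site is the only one of them that was tested with at least 10 counts required in every library. Fold changes below are log2, and the causes of the changes listed were not tested unless stated.

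Without the 3 NANOG libraries numbered 2, an alternative chosen after seeing the data, the Top1 site changed by -0.22 at 2 h and -0.0039 at 24 h of NANOG depletion, and the Suv39h1 site by -0.123 at 6 h and -0.0203 at 24 h. Under the replicate block the Top1 site at 6 h of NANOG depletion was 0.0139, and with block and GC offsets 0.0106. SOX2 minus OCT4 at the Suv39h1 site at 6 h was -0.0268 with GC offsets, -0.0082 with no count filter and -0.0328 with block and GC offsets. With GC offsets, and then with the replicate block added, the Top1 promoter was -0.0532 and -0.0578 at 6 h of SOX2, -0.1349 and -0.1442 at 24 h of OCT4, and 0.0079 and 0.0361 at 6 h of NANOG depletion. The Suv39h1 promoter was -0.1922 and -0.1966 at 24 h of SOX2 and -0.027 and -0.0332 at 24 h of OCT4 depletion. With total counts the median change over all peaks at 24 h of OCT4 depletion moved from -0.0127 to -0.1419.

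Leaving out 1 library at a time gave, at the Top1 site, -0.2326 to 0.3671, -0.216 to 0.1058 and -0.0111 to 0.4519 at 2, 6 and 24 h of NANOG depletion, and for SOX2 minus OCT4 -0.031 to 0.4609 at 6 h and -0.2202 to 0.3095 at 24 h. At the Suv39h1 site it gave -0.1366 to 0.2431 and -0.0274 to 0.3397 at 6 and 24 h of NANOG depletion, -0.3026 to 0.1621 for SOX2 minus OCT4 at 6 h, 0.5952 to 1.8583 at 24 h, and -1.5541 to -1.1102 at 0.5 h of SOX2 depletion. For the Top1 promoter it gave -0.0101 to 0.1294 (SOX2 6 h), -0.2535 to 0.0304 (SOX2 1 h), -0.584 to 0.2537 (OCT4 2 h), -0.4061 to 0.2496 (OCT4 6 h), -0.3456 to 0.1641 (NANOG 2 h) and -0.2701 to 0.2397 (NANOG 6 h). For the Suv39h1 promoter it gave -0.0337 to 0.0866 (SOX2 0.5 h), -0.4811 to 0.0818 (OCT4 2 h), -0.2366 to 0.0386 (OCT4 6 h) and -0.0025 to 0.2261 (NANOG 6 h). The NANOG site to promoter ratio difference was -0.2006 to 0.3142 for Top1 and -0.0066 to 0.144 for Suv39h1. A group left with 1 library was assumed to vary like the others.

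Members lost with 10 counts in every library, which left 7 members tested, were 1, 1 and 3 (SOX2 at 2, 6 and 24 h) and 1, 1 and 2 (OCT4), with 0 gained at 2 h of OCT4 depletion. Under DESeq2, 2 and 5 were lost at 2 and 24 h of OCT4 depletion. With only the line compared, 2 and 5 were lost and 0 gained at 2 h there, and 2 were gained at 24 h of SOX2 depletion. With the replicate block 2 were gained at 24 h of SOX2, 2 at 2 h of OCT4 and 4 at 24 h of OCT4 depletion. With block and GC offsets 1 was gained at 6 h and 1 at 24 h of SOX2 and 2 at 6 h of OCT4 depletion. With GC offsets 1 was gained at 6 h and 1 at 24 h of OCT4 depletion, and with total counts 0 at 2 h. Leaving out 1 library gave 3 to 6 lost at 24 h of SOX2 (3 without SOX2 24 h or NT replicate 2), 1 to 2 at 0.5 h, and for OCT4 2 to 4 lost and 0 to 1 gained at 2 h, 3 to 5 lost at 6 h (3 without OCT4 6 h replicate 2), and 5 to 9 lost (5 without OCT4 24 h replicate 1) and 1 to 4 gained at 24 h.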
